A study of Danio rerio with 12 samples.

Results

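The genes described here are those of the mitochondrial respiratory chain and ATP synthase, read in whole brains of adult zebrafish with and without a working glucocorticoid receptor (GR). They were chosen by symbol: every gene whose symbol starts with nduf, uqcr, sdha, sdhb, sdhc, sdhd, atp5 or mt-, or with cox followed by 4 to 8, case ignored. The rule found 121 of the 32520 gene IDs in the tables. Of these, 94 are nuclear genes counted as subunits (complex I 38, complex II 5, complex III 8, complex IV 25, complex V 18), 13 are the mRNA genes of the mitochondrial genome, and 14 are assembly factors or the inhibitor of ATP synthase, which the symbols bring in. The ndufa4 genes were counted with complex IV, where the protein is known to sit in mammals, and COX7A2L, which joins complexes into supercomplexes in mammals, was left with complex IV.

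RNA came from 6 GR-mutant and 6 wild-type males, all 22 months old and untreated, with 1 poly(A)-selected library for each brain. GR-mutant fish were homozygous for the allele gr s357 of nr3c1, the gene for GR, and the wild-type fish (gr +/+) were their siblings from crosses of heterozygotes. Fish were sorted by genotype as young adults and then held as groups, so genotype and holding group cannot be told apart. The brains were taken with olfactory bulbs and pituitary, and in such bulk tissue fewer cells of a type and less RNA per cell cannot be told apart.

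The respiratory chain passes electrons from NADH (complex I) and succinate (complex II) through complex III to oxygen at complex IV, pumping protons across the inner mitochondrial membrane, and complex V (ATP synthase) uses that gradient to make ATP. Its proteins have 2 sources: the mitochondrial genome encodes 13 subunits of complexes I, III, IV and V, while all subunits of complex II and most of the rest are encoded in the nucleus and imported. Neurons depend heavily on this pathway, and many vertebrate subunits, above all in complex IV, exist as paralogs used by different tissues.

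The libraries held 24407683 to 37548901 reads recovered from the deposited values. Total normalised counts were 28539104 to 29513949 in GR-mutant libraries and 29540644 to 31637122 in wild-type libraries, with no overlap. Many results below are therefore also given with all libraries scaled to equal totals. A level or fold change given without such a second value is at the deposited scaling and may change with it. That scaling moved the median log2 fold change of all genes from 0.01 to 0.09. Markers of neurons, glia and myelin were at high counts in every library. The summed neuron markers were 311092 to 332939 normalised counts in GR-mutant brains and 332764 to 360281 in wild-type brains, with 0 of 14 marker genes higher and 2 lower by the test described below. Summed radial glia markers were 107332 to 127457 in GR-mutant brains and 126307 to 143617 in wild-type brains, with 1 of 7 genes higher and 2 lower. Over all genes tested 7.59% were higher and 9.92% lower. Both sums were mostly lower in the mutants, but neither is scaled to equal totals. Of the glial IDs only those for GLUL did not overlap. They had 4686 to 5718 and 27297 to 34328 counts in GR-mutant brains, against 9021 to 17931 and 37397 to 46878 in wild-type brains. FABP7 (ENSDARG00000007697) had 12794 to 14604 in GR-mutant and 10956 to 13778 in wild-type brains. These genes were named after their values were seen, and the part of either sum in the results below was not tested. In 2 libraries, GR-mutant 5 and wild-type 1, skeletal muscle markers summed to 20070 and 11027 normalised counts, against 271 to 926 in the other GR-mutant and 265 to 477 in the other wild-type libraries; most of it was creatine kinase (ckma, ckmb) and troponin T (TNNT3), named here after their values were seen. Heart muscle markers summed to at most 276. The transcript of nr3c1 itself was present in both genotypes, at 4670 to 4955 normalised counts in GR-mutant and 4107 to 4567 in wild-type brains. Every GR-mutant brain lay above every wild-type brain. The presence of the transcript is no check of the genotype labels, and whether its level is one was not tested.

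Across all members the transcripts of the respiratory chain differed little between the genotypes. Of the 121 members, 118 reached 10 normalised counts in 6 or more libraries, and 11 of these passed an adjusted p of 0.05 in limma (fitted across 20114 genes), 1 higher and 10 lower in GR-mutant brains, a share of 9.32%, against 17.5% of all genes tested (7.59% higher, 9.92% lower). The median log2 fold change of the 118 members was -0.07, GR-mutant minus wild-type, against 0.01 for all genes tested, and 90 of the 118 were below 0. At equal totals the medians were 0.01 for the members and 0.09 for all genes, and 1 member passed as higher and 2 as lower (background 15% and 6.52% of all genes). Equal totals shift all genes about alike, so the gap between the 2 medians could not change, and finding it under both scalings adds no support. At equal totals 57 of the 118 fold changes were below 0, against 7113 of 20114 over all genes. The groups did not overlap in 3 members, all lower in the mutants, against 4.92% of all genes lower without overlap.

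For most members the data bound the difference closely. Among the 107 that did not pass, 82 had a 95% interval of the fold change that stayed within 1.25-fold in either direction. The other 25 had an interval that reached further. The 95% intervals here and below use the normal approximation and are somewhat narrower than those of the limma test, so 82 is an upper count. The widest was 1.14 to each side on the log2 scale. Members also varied less from brain to brain than most genes: the median standard deviation within a genotype was 0.13 on the log2 scale, against 0.21 over all genes tested, though members also had more counts (a median of 2158 against 357 normalised counts), and counts vary less where they are high.

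**Figure D1:**
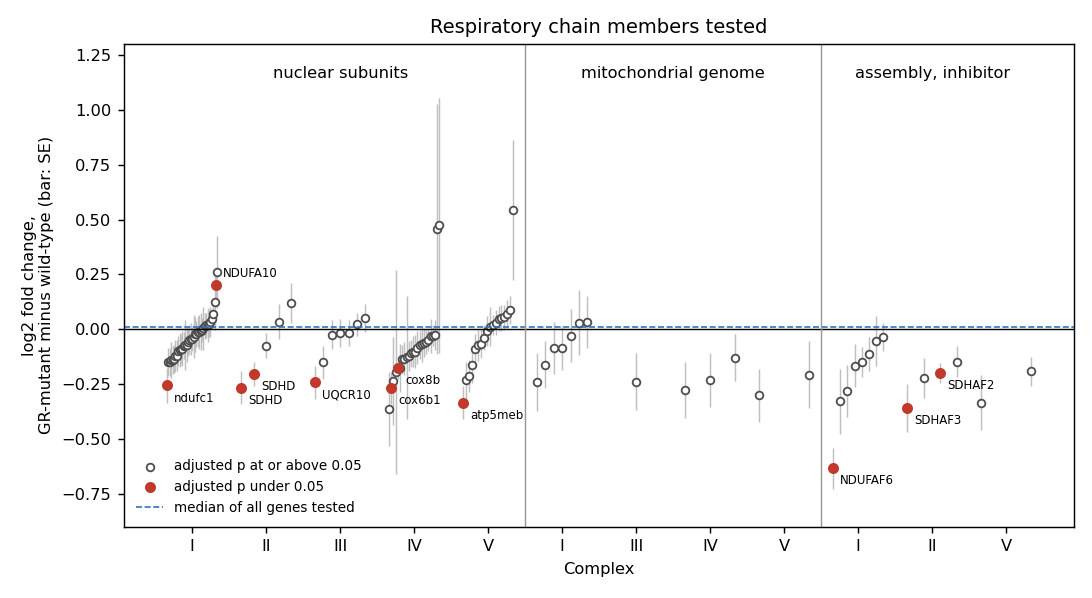
Log2 fold change (GR-mutant minus wild-type, on log2 of the normalised count plus 1) of the 118 members tested, by complex. Vertical lines part nuclear subunits, genes of the mitochondrial genome and assembly factors or inhibitor. Each point is a gene, bars are standard errors, and filled points passed an adjusted p of 0.05. Of the 11 filled points 10 lie below 0, from NDUFAF6 at -0.63 to cox8b at -0.18, and NDUFA10 is above at 0.20.

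The largest difference among the members was in an assembly factor rather than a subunit. NDUFAF6, which in humans is needed to assemble complex I, had a lowest, median and highest value of 205, 236 and 268 normalised counts in GR-mutant brains, against 329, 357 and 435 in wild-type brains. Every mutant brain lay below every wild-type brain, and the log2 fold change was -0.63 (standard error 0.09, adjusted p = 0.000609 in limma), or -35.6% in the mean. It passed in each of the 25 alternative fits, with an adjusted p of 0.000646 to 0.00209 when any 1 library was left out.

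Assembly factors of complex II were lower as well. SDHAF2, which attaches the flavin cofactor to the catalytic subunit SDHA, had 1326, 1413 and 1460 normalised counts in GR-mutant brains, against 1491, 1623 and 1721 in wild-type brains. The groups did not overlap, although the change was small (log2 fold change -0.20, standard error 0.05, adjusted p = 0.0099), and at equal totals it no longer passed (adjusted p = 0.0892). SDHAF3, which helps the iron-sulfur subunit SDHB to mature, had 248, 323 and 376 counts in GR-mutant brains, against 346, 408 and 473 in wild-type brains (log2 fold change -0.36 with a standard error of 0.11, adjusted p = 0.0391). The lowest wild-type brain was within the mutant range, and SDHAF3 did not pass at equal totals (adjusted p = 0.0673). The other 2 assembly factors of complex II had log2 fold changes of -0.22 and -0.15 and did not pass. In all, 3 of the 14 genes of this class passed, all lower, and all 14 fold changes were below 0, with a median of -0.19 (-0.11 at equal totals, where 12 were below 0). Over all genes tested 9.92% were lower, and 9684 of 20114 fold changes were below 0 (7113 at equal totals).

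The pair of genes for the inhibitor of ATP synthase lay near the threshold at the deposited scaling, but not at equal totals. The inhibitor keeps the enzyme from running backwards and splitting ATP. In GR-mutant brains atp5if1b had 3548, 3965 and 4431 normalised counts, against 4013, 4478 and 4984 in wild-type brains (log2 fold change -0.19, standard error 0.07, adjusted p = 0.06). Its paralog atp5if1a had 811, 851 and 1239 counts in GR-mutant brains, against 1060, 1146 and 1449 in wild-type brains (log2 fold change -0.33, standard error 0.12, adjusted p = 0.0801). At equal totals the adjusted p in limma was 0.190 for atp5if1b and 0.135 for atp5if1a. Both ranges overlapped, and DESeq2 on the recovered reads called only atp5if1b of the pair (adjusted p = 0.0354). That fit called 12.3% of all genes lower.

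Complex I, which takes electrons from NADH, had 37 nuclear subunits tested, with 1 higher and 1 lower in GR-mutant brains and a median log2 fold change of -0.05. That is 5.41% called, against 17.5% of all genes tested. The higher one was NDUFA10, an accessory subunit with a kinase-like fold. It had 2432, 2797 and 3014 normalised counts in GR-mutant brains, against 2133, 2486 and 2656 in wild-type brains, with only GR-mutant 3 inside the wild-type range. Its log2 fold change was 0.20 (standard error 0.06, adjusted p = 0.0445 in limma, 0.00967 at equal totals). This call was fragile: it held in 2 of the 12 fits that left out 1 library, with an adjusted p of up to 0.0938. The lower one was ndufc1, a small accessory subunit of the membrane arm, with 608, 679 and 747 counts in GR-mutant brains, against 677, 816 and 901 in wild-type brains. Wild-type 2 was the only wild-type brain inside the mutant range (log2 fold change -0.26, standard error 0.08, adjusted p = 0.0368, and 0.0981 at equal totals).

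NDUFV1, the subunit that binds NADH and the nuclear member of complex I with the most counts, averaged 6360 ± 320 normalised counts in GR-mutant brains and 6072 ± 536 in wild-type brains (SD, n = 6 each), with a log2 fold change of 0.07 (95% interval -0.04 to 0.18, adjusted p = 0.439 in limma). NDUFS1, a subunit that carries iron-sulfur clusters, was listed at 0 in 11 of the libraries and at 1 read in GR-mutant 2, so no value for this subunit is given. The nuclear subunit of complex I with the fewest counts past the filter, ndufa9b, had 29.1 to 40.5 counts in GR-mutant and 23.8 to 35.1 in wild-type brains.

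Complex II, succinate dehydrogenase, is the one complex with no mitochondrially encoded subunit. Of its 5 nuclear subunit IDs tested 2 passed, both lower (40%, against 9.92% of all genes lower). Both are IDs for SDHD, a membrane anchor of the enzyme. ENSDARG00000030139 had 1686, 1893 and 2059 normalised counts in GR-mutant brains, against 2022, 2156 and 2320 in wild-type brains (log2 fold change -0.20, standard error 0.06, adjusted p = 0.0241). ENSDARG00000055712 had 848, 971 and 1015 counts in GR-mutant brains, against 995, 1209 and 1265 in wild-type brains (log2 fold change -0.27 with a standard error of 0.07, adjusted p = 0.0264). The ranges of the first touched through GR-mutant 6 and wild-type 5, and those of the second through GR-mutant 3 and 4 and wild-type 2 and 5. Reads that match both copies may have affected their counts, and neither passed at equal totals (adjusted p = 0.107 and 0.0681). The catalytic subunit SDHA had 13039 to 17092 counts in GR-mutant brains and 13038 to 16084 in wild-type brains, with a 95% interval of its log2 fold change of -0.12 to 0.19, and neither SDHB nor SDHC passed.

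Complex III hands electrons to cytochrome c. Of its 7 nuclear subunits tested only 1 passed, as lower (14.3%, against 9.92% of all genes lower). This was UQCR10, a small subunit and, of the 7, the one with the fewest counts. It had 1263, 1443 and 1605 normalised counts in GR-mutant brains, against 1500, 1719 and 1825 in wild-type brains (log2 fold change -0.24, standard error 0.07, adjusted p = 0.038, and 0.106 at equal totals). The ranges overlapped through GR-mutant 4, GR-mutant 6 and 2 wild-type brains. UQCRFS1, the Rieske iron-sulfur protein and the nuclear member of complex III with the most counts, had 4581 to 5211 counts in GR-mutant and 4283 to 5781 in wild-type brains (95% interval of the log2 fold change -0.15 to 0.10). UQCRB was below the filter, at 0 to 6.41 counts in GR-mutant and 2.93 to 13 in wild-type libraries.

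Complex IV reduces oxygen, and 2 of its 24 nuclear subunits tested passed, both lower. The first, cox6b1, whose protein faces the intermembrane space, had 1684, 1931 and 2093 normalised counts in GR-mutant brains, against 2020, 2316 and 2597 in wild-type brains (log2 fold change -0.27, standard error 0.07, adjusted p = 0.0225, and 0.0515 at equal totals). Wild-type 2 was the only wild-type brain inside the mutant range. The second, cox8b, a copy of the smallest nuclear subunit, had 3697, 4047 and 4330 counts in GR-mutant brains, against 4306, 4492 and 5008 in wild-type brains (log2 fold change -0.18, standard error 0.05, adjusted p = 0.0242, and 0.152 at equal totals). COX4I1, a subunit early in the assembly of the enzyme, had 7133 to 8375 counts in GR-mutant and 7301 to 8780 in wild-type brains and did not pass. Of the 24 fold changes 22 were below 0, with a median of -0.10, but at equal totals 14 were below 0, with a median of -0.02. Over all genes tested 9684 of 20114 were below 0 (7113 at equal totals). The share called lower was 8.33%, against 9.92% of all genes.

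Complex V, ATP synthase, had 1 of 18 nuclear subunits past the threshold, as lower (5.56%, against 9.92% of all genes lower). The subunit e gene atp5meb, whose protein in yeast and mammals holds ATP synthase in dimers, had 2328, 2654 and 3053 normalised counts in GR-mutant brains, against 3072, 3335 and 3872 in wild-type brains. The groups did not overlap (log2 fold change -0.33, standard error 0.08, adjusted p = 0.00909, and 0.0255 at equal totals), and it passed in all 25 alternative fits. Its paralog atp5mea ran from 814 to 1723 counts in GR-mutant brains and from 299 to 1670 in wild-type brains, the value of 299 being that of wild-type 1, and its fold change was too imprecise to read (log2 0.54, 95% interval -0.08 to 1.17, adjusted p = 0.259). The difference between the 2 copies was not tested. In the catalytic head of the enzyme the alpha, beta, gamma and delta subunits (ATP5F1A to ATP5F1D) had log2 fold changes of 0.05 to 0.09 and the epsilon subunit atp5f1e one of -0.23, none of which passed in limma. ATP5F1B, the subunit that makes ATP, had 23015 to 25676 counts in GR-mutant brains and 20522 to 25602 in wild-type brains. The epsilon subunit and atp5mj, a small membrane subunit with a log2 fold change of -0.21, were both named after their values were seen. They had adjusted p = 0.0681 and 0.059 in limma, and 0.166 and 0.174 at equal totals. DESeq2 called both as lower (adjusted p = 0.0372 and 0.0328), in a fit that called 12.3% of all genes lower.

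**Figure D2:**
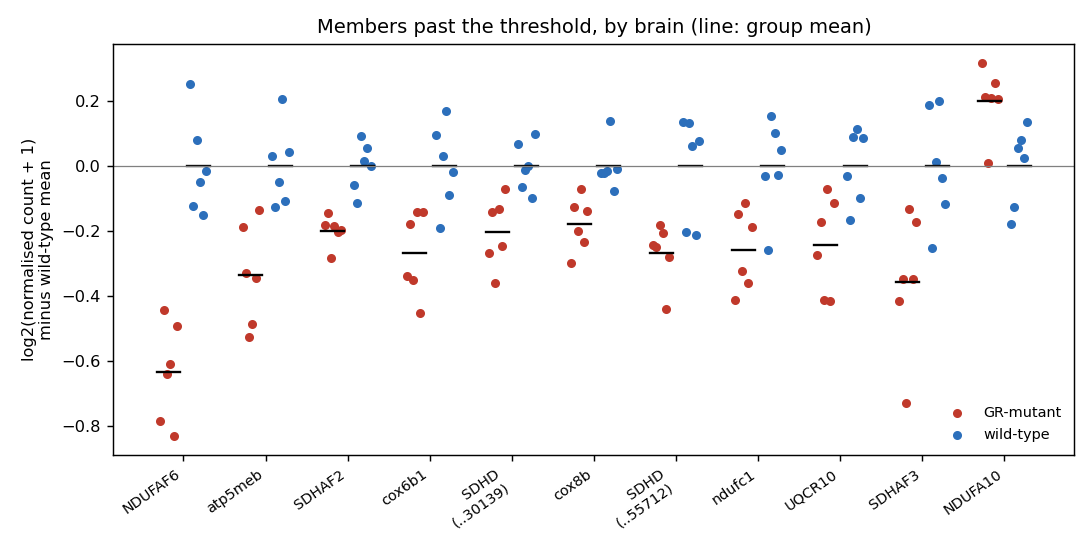
The 11 members past the threshold, ordered by p: each point is the log2 value of 1 brain minus the mean of the wild-type brains, GR-mutant to the left of wild-type within each gene, with lines at the group means (n = 6 each). For NDUFAF6, atp5meb and SDHAF2 every GR-mutant point is below every wild-type point, and for the other 8 the groups touch or overlap.

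These calls rested on all brains to different degrees. NDUFAF6, atp5meb and SDHAF2 passed in each of the 12 fits that left out 1 library, SDHD ENSDARG00000055712 in 8, SDHD ENSDARG00000030139 and cox8b in 9 each, cox6b1 in 10, UQCR10 in 5, and ndufc1 and SDHAF3 in 4 each. The number of members called fell to 3, all lower, without GR-mutant 5, to 4 without wild-type 4, to 5 without GR-mutant 1, to 6 without wild-type 1 or wild-type 3, and to 7 without GR-mutant 3, while leaving out wild-type 2 gave 15. In these 12 fits 12.8 to 17.3% of all genes passed. Without both libraries that held muscle transcripts the calls were NDUFAF6, SDHAF2 and atp5meb, all lower, at a background of 7.05% of all genes lower.

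Of the members, 3 are on the chromosome of nr3c1 in the RefSeq gene table (assembly GRCz12tu). Fish chosen by genotype at nr3c1 also share what is inherited with it. These members lie 219 (NDUFA1), 326 (UQCRQ) and 429 (ndufc1) gene IDs from nr3c1 in the gene order. NDUFA1, a membrane arm subunit of complex I, had 1794 to 2103 counts in GR-mutant and 1490 to 2094 in wild-type brains (log2 fold change 0.02, adjusted p = 0.887). UQCRQ, a small subunit of complex III, had 1562 to 1904 in GR-mutant and 1568 to 1905 in wild-type brains (log2 fold change -0.02, adjusted p = 0.88). The third, ndufc1, is the one described above, and the effects of the allele and of linked variants on it cannot be told apart.

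The 13 mRNAs of the mitochondrial genome made up 6.60 to 7.22% of all counts in GR-mutant brains (6.94% ± 0.255, SD, n = 6) and 6.07 to 10.1% in wild-type brains (7.53% ± 1.39, SD, n = 6). The value of 10.1% came from wild-type 1 alone, and the other 5 wild-type brains ran from 6.07 to 7.81%. The difference of -0.59 percentage points, GR-mutant minus wild-type, was -0.08 without that brain. Nuclear subunits together made up 0.897 to 1.03% in GR-mutant brains (0.970% ± 0.045, SD, n = 6) and 0.881 to 1.01% in wild-type brains (0.938% ± 0.057, SD, n = 6). Counts are not corrected for length, so these shares do not compare how much protein-coding RNA each genome supplied.

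**Figure D3:**
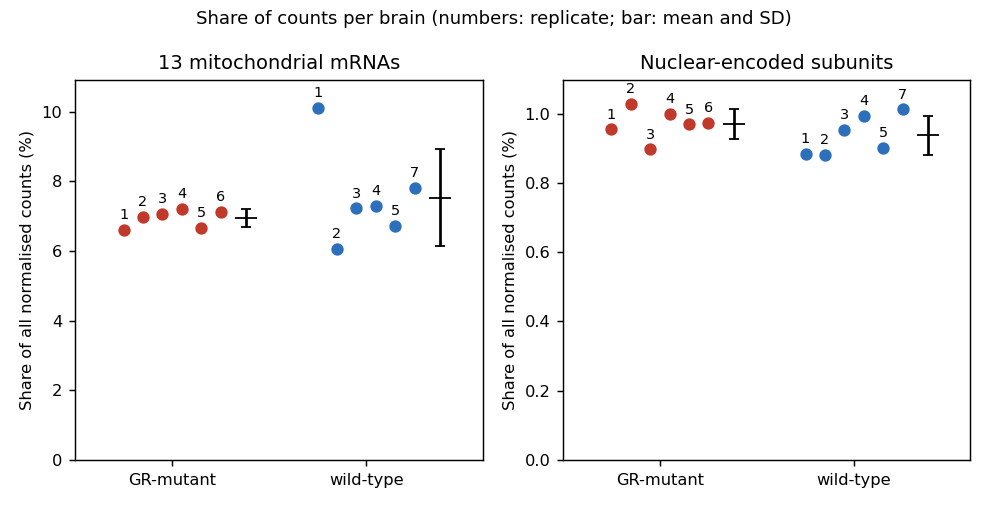
Share of all normalised counts, in percent, from the 13 mitochondrial mRNAs (left) and from the nuclear subunits (right), with 1 point for each brain, its replicate number, and the mean and SD of each genotype beside the points; axes start at 0. Wild-type 1 stands at 10.1% on the left and at 0.884% on the right, where it is among the lower brains.

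Wild-type 1 held more of all 13 mitochondrial mRNAs than any other brain, while its nuclear subunits were ordinary. Relative to the mean of the other wild-type brains, its counts of the 13 were 1.33-fold (mt-atp8) to 1.63-fold (MT-CYB), and 1.49-fold in total, whereas its summed nuclear subunits were 0.969-fold. The lowest brain was also wild-type: wild-type 2 had the lowest value for 11 of the 13, and GR-mutant 1 for the other 2. The 6 GR-mutant brains therefore all lay within the wild-type range for the sum of the 13 (1895730 to 2130980 normalised counts in GR-mutant brains, 1792750 to 3194980 in wild-type brains). Wild-type 1 was also 1 of the 2 brains with muscle transcripts. GR-mutant 5, the other, had 6.67% mitochondrial counts, and the part of muscle in the mitochondrial share was not tested.

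None of the 13 mitochondrial mRNAs passed in limma, in either direction. At an unadjusted p under 0.05 there were 2 (MT-ATP6 and MT-CO3), and DESeq2 on the recovered reads called 1 as lower and edgeR 0, where 12.3% (lower) and 17.2% (either direction) of all genes were called. MT-ATP6, the subunit of the ATP synthase proton channel, had 141929, 160399 and 181671 normalised counts in GR-mutant brains, against 158962, 192407 and 279010 in wild-type brains (log2 fold change -0.30, standard error 0.12, adjusted p = 0.104 in limma and 0.0391 in DESeq2). MT-CO3, a core subunit of complex IV, had 258006, 274131 and 293447 counts in GR-mutant brains, against 244494, 331453 and 492995 in wild-type brains (log2 fold change -0.28, adjusted p = 0.149). At equal totals the adjusted p in limma was 0.170 for MT-ATP6 and 0.245 for MT-CO3. The ranges of both overlapped, and without wild-type 2 both passed (adjusted p = 0.0464 and 0.0389), whereas without wild-type 1 neither did. The fold changes of the other 11 ran from -0.24 for MT-ND3 and MT-CYB to 0.03 for MT-ND5 and MT-ND6. By complex, the median fold change on the log2 scale was -0.09 over the 7 of complex I, -0.24 for MT-CYB of complex III, -0.23 over the 3 of complex IV and -0.25 over the 2 of complex V. At equal totals these were -0.003, -0.16, -0.15 and -0.17.

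MT-CO1, the catalytic subunit of complex IV and the member with the most counts of all, had 672281 to 757192 counts in GR-mutant and 639952 to 1028340 in wild-type brains. MT-CO2, which accepts electrons from cytochrome c, had 305605 to 349753 in GR-mutant and 298757 to 556877 in wild-type brains. MT-CYB, the only complex III subunit of the mitochondrial genome, had 147655 to 175208 in GR-mutant and 145723 to 293028 in wild-type brains. In each the wild-type range enclosed the GR-mutant range. Among the complex I genes MT-ND1 had 73484 to 88319 counts in GR-mutant and 70091 to 114756 in wild-type brains, MT-ND2 had 65895 to 73376 in GR-mutant and 58362 to 103418 in wild-type brains, and MT-ND4 had 106910 to 134633 in GR-mutant and 93307 to 171868 in wild-type brains. The genes with few counts, mt-atp8 (493 to 703 in GR-mutant and 466 to 902 in wild-type brains) and mt-nd4l (3658 to 4550 in GR-mutant and 3132 to 5630 in wild-type brains), overlap MT-ATP6 and MT-ND4 on the genome, and MT-ND6 (1948 to 2806 in GR-mutant and 1538 to 3094 in wild-type brains) is encoded on the opposite strand, so reads of these may be shared with their neighbours. MT-ND3 had 15362 to 19821 in GR-mutant and 15979 to 32310 in wild-type brains.

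Within the 13 mRNAs, 1 of the 13 proportions, that of MT-ND5, differed between the genotypes. This comparison, which takes each mRNA as a share of the 13 in the same brain and so does not depend on the scaling between libraries, was chosen after the values were seen. MT-ND5, a proton-pumping subunit of complex I, made up 3.73, 3.83, 3.85, 4.14, 4.15 and 4.44% of the 13 in the GR-mutant brains (mean 4.02% ± 0.267, SD, n = 6), against 3.37, 3.39, 3.46, 3.49, 3.52 and 3.53% in the wild-type brains (mean 3.46% ± 0.068, SD, n = 6). The genotypes did not overlap, although the level of MT-ND5 itself did not pass. The log2 ratio was 0.22 (p = 0.00216 in a two-sided exact permutation over brains, the smallest that 6 against 6 can give, and 0.0281 after Benjamini-Hochberg adjustment over the 13 shares computed). With any 1 library left out the log2 ratio was 0.19 to 0.24, and without both libraries that held muscle transcripts it was 0.21. Leaving brains out cannot make groups overlap that are apart with all brains, so overlap was not a check here. The adjusted p was 0.0281 to 0.0563 without 1 library and 0.103 without both. Of these, 0.0281 and 0.103 are each the lowest that so few brains allow when 1 share of the 13 stands apart, so they say nothing about stability. The value of 0.0563 is not such a limit, since 0.0281 was also reached with 1 library left out. The groups stayed apart in those fits too, so it is no check of stability either. MT-ATP6 took 7.49 to 8.53% of the 13 in GR-mutant brains and 8.34 to 9.52% in wild-type brains, and MT-CO3 took 12.9 to 14.2% in GR-mutant and 13.6 to 15.4% in wild-type brains. MT-ND4 took 5.49 to 6.32% in GR-mutant and 5.17 to 5.58% in wild-type brains. These 3, and MT-ND1, had an adjusted p of 0.0563, and the ranges overlapped. The other 8 had adjusted p values of 0.0985 to 0.807, with log2 ratios of -0.06 (MT-ND3) to 0.21 (MT-ND6). The ratio of MT-ND6 was thus about as large as that of MT-ND5, and that of mt-nd4l was 0.15. Both had overlapping ranges and an adjusted p of 0.0985 in the same permutation test. A shift of this size was therefore not particular to MT-ND5.

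**Figure D4:**
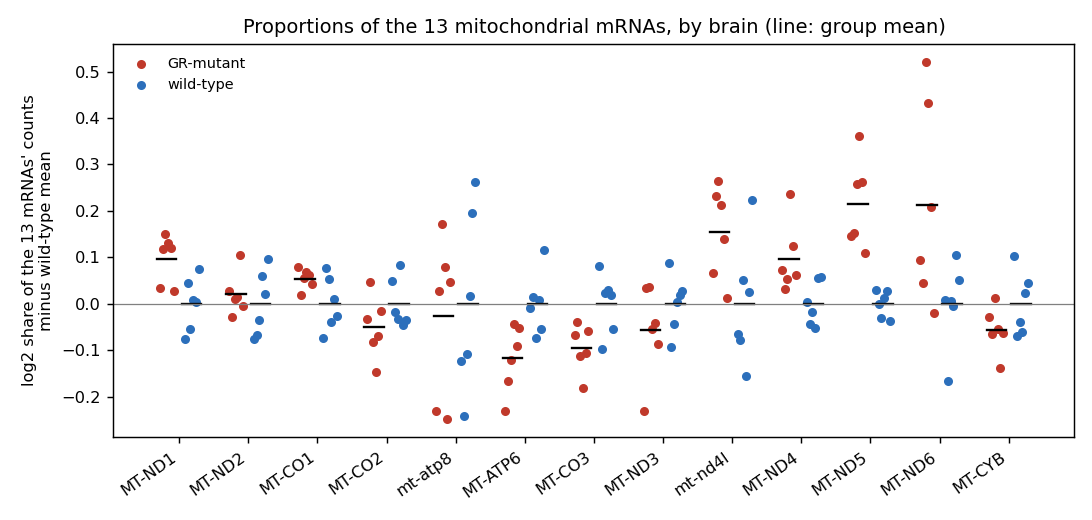
Share of each mitochondrial mRNA among the counts of all 13, as log2 minus the mean of the wild-type brains, with 1 point for each brain, GR-mutant to the left of wild-type, and lines at the group means (n = 6 each). The MT-ND5 points of the GR-mutant brains all lie above those of the wild-type brains (mean log2 difference 0.22), while the points of the other 12 mRNAs overlap.

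Set against each other brain by brain, the nuclear and mitochondrial genes had different brains at their extremes. The log2 ratio of summed nuclear subunit counts to mitochondrial mRNA counts was -2.98 to -2.76 in GR-mutant brains (-2.84 ± 0.08, SD, n = 6) and -3.51 to -2.78 in wild-type brains (-2.99 ± 0.263, SD, n = 6), a difference of 0.15 that was 0.05 without wild-type 1, the brain at -3.51. Taken as the median over genes in place of the sum, the difference was -0.05. Among the 91 nuclear subunits tested, wild-type 4 had the highest value of the 12 brains for 32 and wild-type 7 for 27, while GR-mutant 3 had the lowest for 35 and wild-type 2 for 24. Wild-type 2 was therefore low in both sets, while wild-type 1 was at the top of the mitochondrial set only. Pituitary markers, present because brains were taken with the pituitary, summed to 85785 normalised counts in GR-mutant 3 and 45984 in wild-type 2, the highest of their genotypes, against 6875 in wild-type 4 and 7807 in wild-type 7. Over all brains they ran from 360 (GR-mutant 1) to 85785 in GR-mutant and from 6732 (wild-type 1) to 45984 in wild-type brains. The 2 brains with these lowest sums were not at the top of the nuclear set. Of the 91 subunits, GR-mutant 1 had the highest value for 2 and the lowest for 7. Wild-type 1 had the highest for 6 and the lowest for 8. Of 7 pituitary genes tested 1 was higher and 0 lower, where 7.59% of all genes were higher and 9.92% lower. The part of the pituitary in the levels of the members was not tested.

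By complex, the summed nuclear counts overlapped between the genotypes throughout. Complex IV had the largest gap, 63740 to 77110 normalised counts in GR-mutant and 69073 to 83951 in wild-type brains (means of 69643 ± 5279 in GR-mutant and 74426 ± 5510 in wild-type brains, SD, n = 6 each). Complex V had 93004 to 105292 in GR-mutant and 89497 to 110024 in wild-type brains, complex I 58358 to 67368 in GR-mutant and 59457 to 70304 in wild-type brains, complex III 19967 to 22629 in GR-mutant and 19782 to 24589 in wild-type brains, and complex II 22541 to 27645 in GR-mutant and 22254 to 27455 in wild-type brains. Sums are led by the genes with the most counts, and no test was applied to them. They are not scaled to equal totals, and totals were lower in every GR-mutant library. These gaps, that of complex IV included, therefore depend on the scaling. All nuclear subunits together averaged 280621 normalised counts in GR-mutant and 287126 in wild-type brains, but 0.970% and 0.938% of all counts. The difference between complexes was not tested either.

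Copies of the same subunit, or of the inhibitor, were compared as 14 pairs within each brain, since a ratio within a brain does not depend on the scaling. None differed after adjustment over the 14 pairs (exact permutation tests, two-sided). The smallest p was that of cox6b1 over cox6b2, with a mean log2 ratio of -1.36 ± 0.09 in GR-mutant and -1.18 ± 0.07 in wild-type brains (SD, n = 6 each, exact p = 0.00649, adjusted p = 0.0909). Next was cox8b over cox8a, at -0.23 ± 0.07 in GR-mutant and -0.08 ± 0.10 in wild-type brains (SD, n = 6 each, exact p = 0.0238, adjusted p = 0.167). COX4I2, a copy induced by low oxygen in mammals, over COX4I1 averaged -1.91 ± 0.13 in GR-mutant and -1.83 ± 0.21 in wild-type brains (SD, n = 6 each, exact p = 0.481). COX5A over cox5aa averaged -1.07 ± 0.08 in GR-mutant and -0.96 ± 0.08 in wild-type brains (SD, n = 6 each, exact p = 0.0498, adjusted p = 0.232). The remaining 10 pairs, among them ndufa4b with NDUFA4, the subunit c genes atp5mc1 and ATP5MC3 each with atp5mc3b, atp5if1b with atp5if1a, uqcrc2a with UQCRC2 and cox4i1l with COX4I1, had an adjusted p of 0.432 or more. cox4i1l itself varied widely, from 182 to 541 counts in GR-mutant and from 230 to 453 in wild-type brains.

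Among the complex IV copies with few counts, 3 were highest in the 2 brains with muscle transcripts. They were grouped here after their values were seen. COX6A1 (ENSDARG00000054588) had 326 normalised counts in GR-mutant 5 and 86.3 in wild-type 1, against 23.8 to 42.1 in the other GR-mutant and 17.0 to 45.3 in the other wild-type brains. cox7a1, the muscle form of this subunit in mammals, had 111 in GR-mutant 5 and 40.0 in wild-type 1, against 9.52 to 23.5 in the other GR-mutant and 14.7 to 32.6 in the other wild-type brains. COX5B (ENSDARG00000068738) had 137 and 67.6 in these 2 brains, against 17.8 to 46.2 in the other GR-mutant and 7.55 to 62.5 in the other wild-type brains. All 3 were highest in the 2 brains in which the skeletal muscle markers were highest, and in the same order. None differed between the genotypes (adjusted p = 0.617, 0.808 and 0.612), with 95% intervals of up to 1.61 on the log2 scale. Their near copies with more counts, cox6a1 (ENSDARG00000022438), COX7A2 (ENSDARG00000053217) and COX5B (ENSDARG00000015978), had no such peak in GR-mutant 5, at 4047, 2073 and 6302 counts. Other complex IV copies with few counts did not peak in both brains. cox4i1l had 541 in GR-mutant 5 but 256 in wild-type 1, and NDUFA4L2 had 678 in wild-type 1 but 345 in GR-mutant 5. COX7A2 (ENSDARG00000110700) was highest in wild-type 2, at 243.

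**Figure D5:**
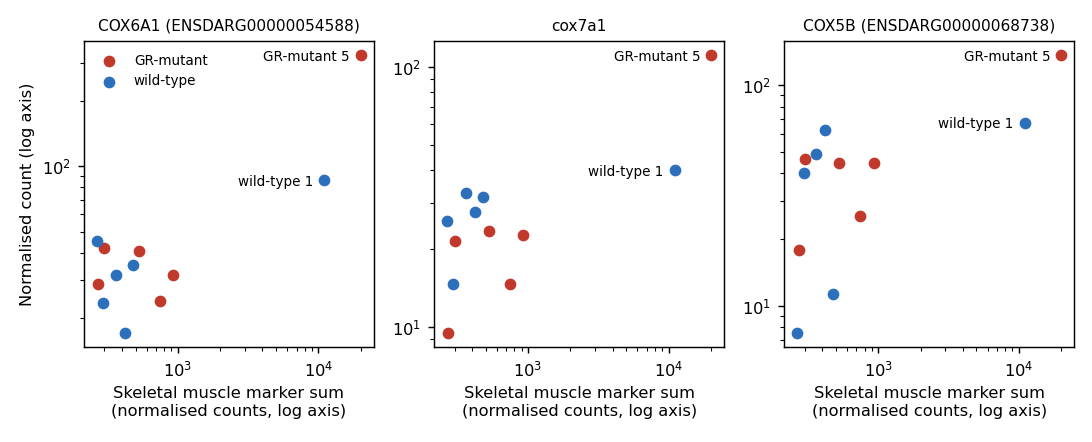
Normalised counts of 3 copies of complex IV subunits (vertical log axes) against the summed skeletal muscle markers of the same brain (horizontal log axes), with 1 point for each brain and GR-mutant and wild-type in different colours. GR-mutant 5, at 326, 111 and 137 counts, and wild-type 1, at 86.3, 40.0 and 67.6 counts, stand at the right with marker sums of 20070 and 11027.

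Other genes of oxidative metabolism, taken as whole lists, were tested in the same fit. Over all genes tested 9.92% were lower, and at equal totals 15% were higher and 6.52% lower. The share called lower was 6.06% of the assembly factors below, 7.14% of the citric acid cycle genes and 11.8% of the outer membrane and carrier genes. None of the 8 electron carriers tested (cytochrome c, CYC1 and the flavoproteins that feed the chain) passed in limma or, among these, had an unadjusted p under 0.05. CYC1 is cytochrome c1, a complex III subunit outside the symbol rule, so the complex III counts above omit it. Of 33 assembly factors outside the symbol rule, 2 were lower: cox17, the copper chaperone of complex IV, had 817 to 1160 normalised counts in GR-mutant and 980 to 1302 in wild-type brains (log2 fold change -0.32, adjusted p = 0.0296), and UQCC2, a complex III assembly factor, had 433 to 563 in GR-mutant and 553 to 682 in wild-type brains (log2 fold change -0.25, adjusted p = 0.035). At equal totals neither passed, and 2 others of this list did, both higher. Of 14 citric acid cycle genes 1 passed, SUCLG2, a subunit of succinyl-CoA synthetase, at 400 to 453 counts in GR-mutant and 464 to 549 in wild-type brains (log2 fold change -0.23, adjusted p = 0.0252, and 0.136 at equal totals). At equal totals 1 other gene of this list passed, as higher (MDH2, adjusted p = 0.0335 in limma). Of 17 genes of the outer membrane and carriers, 2 were lower: CHCHD3, of the complex that shapes the cristae, at 500 to 557 counts in GR-mutant and 561 to 693 in wild-type brains (adjusted p = 0.0372), and the porin VDAC3 at 5691 to 6387 in GR-mutant and 6112 to 7121 in wild-type brains (adjusted p = 0.0394). At equal totals neither passed (adjusted p = 0.163 for CHCHD3 and 0.216 for VDAC3), and 4 others of this list passed, all higher.

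Genes that copy and express the mitochondrial genome changed in both directions, with 4 of 23 higher in GR-mutant brains and 3 lower (30.4%, against 17.5% of all genes), although the mitochondrial mRNAs themselves did not pass. MTERF2, of the mitochondrial transcription termination factor family, had 478 to 632 normalised counts in GR-mutant and 309 to 517 in wild-type brains (log2 fold change 0.60, standard error 0.11, adjusted p = 0.0033). SUPV3L1, the helicase of mitochondrial RNA decay, had 467 to 525 in GR-mutant and 395 to 453 in wild-type brains, with no overlap (log2 fold change 0.20, adjusted p = 0.0324). POLG, the polymerase that copies mitochondrial DNA, had 583 to 730 in GR-mutant and 726 to 975 in wild-type brains (log2 fold change -0.35, adjusted p = 0.0161). GFM2, a factor that recycles mitochondrial ribosomes, had 391 to 469 in GR-mutant brains and 488 to 1535 in wild-type brains, so the wild-type brains alone spanned a wide range (log2 fold change -0.96 with a standard error of 0.25, adjusted p = 0.0173). These 4 kept their direction and passed at equal totals, where the list had 5 higher and 2 lower. Of 11 regulators of mitochondrial genes 1 passed: ppargc1b, a transcriptional coactivator of the PGC-1 family, had 3452 to 4326 counts in GR-mutant and 4245 to 8141 in wild-type brains (log2 fold change -0.71, standard error 0.14, adjusted p = 0.00509, and 0.0101 at equal totals). At equal totals 3 other regulators passed as higher. These were the transcription factor NRF1 (adjusted p = 0.0242) and the GA-binding protein genes GABPA (adjusted p = 0.0238) and gabpb2a (adjusted p = 0.0248). Before that scaling 9.09% of the 11 regulators passed, against 17.5% of all genes, and at equal totals 15% of all genes were higher. ppargc1b and the respiratory chain genes were measured in the same brains, and whether they are connected was not tested.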

How the data were processed

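RNA-seq values of 12 zebrafish brains (6 GR-mutant, 6 wild-type) were used, with a table for each. The authors trimmed read pairs, filtered out rRNA, aligned to GRCz11 with STAR and divided counts per gene by DESeq2 size factors, so the deposited values are a signal, normalised counts, not corrected for transcript length. The submitters' processing notes name Trimmomatic (3.9), FastQC and MultiQC. The library kit was directional; whether counting used strand is not stated in the sources used. Within each library 100% of values were whole multiples of 1 read (tolerance 0.001), giving 24407683 to 37548901 reads, which entered the edgeR and DESeq2 fits only. Symbols came from a gene name table (29201 of 32520 IDs matched). In it 9 members share a symbol with another member, and reads that match near copies may have affected their counts.

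Genes that reached 10 normalised counts in 6 or more libraries were fitted as log2(normalised count + 1) with limma 3.58.1 (R 4.3.3, mean-variance trend, genotype only), with Benjamini-Hochberg adjustment over 20114 genes and a threshold of 0.05. The pseudocount shrinks fold changes of genes with few counts. Members and lists were chosen with earlier results of these data known. Listed symbols that were absent were matched without their paralog letter. Ratios within a brain were compared by two-sided exact permutation tests. Scores over several members got no test. Alternatives were edgeR 4.0.16 and DESeq2 1.42.0 on recovered reads, pseudocounts of 0.5 and 5, no filter or a mean of at least 100, upper-quartile and equal-total scaling, no trend, a replicate block, and each library left out. DESeq2 without a filter, the fits without both libraries rich in muscle transcripts and the shares within the 13 mitochondrial mRNAs were chosen after seeing the data. Scripts were tested on simulated data. Named were members past the threshold, the highest and lowest of each complex, the mitochondrial mRNAs, isoform pairs, members on the nr3c1 chromosome and up to 4 genes past the threshold of each other list. Ribosomal and transfer RNA genes of the mitochondrial genome carry no symbol in the name table and were not analysed here. Figures used matplotlib 3.10.9. A single item is not reported here.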

Additional observations from a re-analysis of the deposited data

Results flagged for a closer look

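In 172 sets of 6 values (sums and a part of the members, each within a genotype), 14 had a highest or lowest brain far from the rest. Chance gives about 1 in 20, and not every member was screened. Wild-type 1 accounts for 8 of them. It had 492995 normalised counts of MT-CO3 and 112753 of MT-ND5, against at most 337627 and 80218 in the other wild-type brains, and 2078210 for the complex IV genes of the mitochondrial genome together, against at most 1517820. Its log2 ratio of nuclear to mitochondrial counts was -3.51, next to -2.95 in the nearest wild-type brain. By complex this ratio was -3.10 for complex I (nearest -2.61), -3.77 for complex III (nearest -3.09), -4.81 for complex IV (nearest -4.32) and -1.55 for complex V (nearest -1.05). These values share the same mitochondrial counts and are not separate observations.

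GR-mutant 5 stood apart in the 3 low-count complex IV copies that were high with the muscle markers: COX6A1 (ENSDARG00000054588) at 326 normalised counts (next 42.1), COX5B (ENSDARG00000068738) at 137 (next 46.2) and cox7a1 at 111 (next 23.5). GR-mutant 4 had 1995 counts of COX5A, against at most 1781 in the other GR-mutant brains. Wild-type 4 had 5008 counts of cox8b (next 4516) and 14923 of ndufa4b (next 11940).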

How the results depend on the processing

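Pseudocounts of 0.5 and 5, the stricter filter, upper-quartile scaling and edgeR each called the same 11 members. The 7 nuclear subunits lower in GR-mutant brains were 1 at either equal-total scaling, 4 with limma without the trend, 1 without both libraries rich in muscle transcripts, and 1 to 10 when 1 library was left out. The 1 nuclear subunit higher was 0 with no filter, without the trend and without both muscle-rich libraries, and 0 to 1 when 1 library was left out. The 3 assembly factors lower were 1 at either equal-total scaling and 2 to 5 when 1 library was left out. The 0 mitochondrial mRNAs lower were 1 in DESeq2, with or without the filter (MT-ATP6), and 0 to 2 when 1 library was left out. Equal totals moved all genes by the same shift, and fits with fewer libraries also called fewer genes overall; otherwise the cause was not tested. The log2 ratio of nuclear subunit counts to mitochondrial genome mRNA counts, 0.15, was -0.0499 as a median over genes.

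Libraries with the same replicate number did not deviate together (correlations of -0.15 to 0.08 over 5 numbers, none the best match of its brain), so the numbers do not pair the brains. With a replicate block over these numbers 0 nuclear subunits were higher and 4 lower. Of the 11 calls 4 remained (NDUFAF6, atp5meb, cox6b1 and cox8b), and atp5if1b, atp5if1a and ndufa4b were added, all lower. The mitochondrial share with ribosomal and transfer RNA genes was not run, as they carry no symbol here. With 6 brains a group, small changes of the low-count copies were not detectable.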
